A study of Mus musculus with 10 samples.

Results

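Fgf5 and the other genes described here encode 4 fibroblast growth factor (FGF) ligands (Fgf5, Fgf4, Fgf8 and Fgf15) and the 4 signalling FGF receptors (Fgfr1, Fgfr2, Fgfr3 and Fgfr4). They were taken by gene symbol from the deposited expression tables and make up 8 of 22867 symbols, each with 1 entry that overlaps no other entry. RNA was sequenced from 10 mouse cell cultures, 1 library each, in a study of how embryonic stem cells (ESC) turn into epiblast-like cells (EpiLC) and of what loss or overexpression of Otx2, a homeobox transcription factor, does to that change. All lines were of the 129SV strain. EpiLC were differentiated for 48 h in medium with bFGF and knockout serum replacement, and came as 1 Otx2-/- library, 1 R1 library with activin A at 20 ng/ml, 1 R1 library without activin A and 1 E14 library. For the E14 and Otx2-/- EpiLC the labels do not say whether activin A was present. ESC grew without serum, with LIF and 2 kinase inhibitors, PD0325901 against MEK at 0.8 µM and CHIR99021 against GSK3 at 3.3 µM. They came as 1 library of Otx2-/- cells carrying a tetON Otx2 transgene with doxycycline (dox), 1 of the same cells without dox, 1 of Otx2-/-, 2 of R1 and 1 of E14. R1 and E14 carry no engineered change in the labels. The dose and duration of dox, the deleted part of Otx2 and whether each Otx2-/- line is 1 clone were not given in the sources used here.

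FGF ligands bind receptor tyrosine kinases together with heparan sulfate, and the receptors signal through adaptors and the Ras-ERK cascade. In the mouse blastocyst Fgf4 from the epiblast acts on Fgfr1 and Fgfr2 and drives neighbouring cells towards primitive endoderm, while autocrine FGF and ERK signalling lets embryonic stem cells leave the naive state. Fgf5 appears in the epiblast as it leaves the naive state and is a standard marker of that change. The ESC medium blocks this cascade at MEK and the EpiLC medium supplies an FGF, so cell state and medium cannot be told apart in these data.

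Levels are FPKM, the fragment count of a gene scaled to transcript length and library depth, which can be compared between genes. Differences are on log2(FPKM + 1), a scale that understates the change of low genes. They were tested with limma, with Benjamini-Hochberg adjustment over all genes tested and a threshold of 0.05. Approximate depth ran between 6.6M fragments in E14 EpiLC and 20.6M in R1 ESC replicate 2, so 1 FPKM on a 2 kb transcript rested on 13 to 41 fragments. The label of each state was set beside markers in R1 and E14, with lists chosen when earlier results of these data were known. All 6 naive factors listed (Klf4, Tbx3, Esrrb, Tfcp2l1, Nanog and Zfp42) fell in R1 and E14 EpiLC against ESC. All 6 epiblast genes (Pou3f1, Otx2, Dnmt3b, Dnmt3a, Sall2 and Wnt8a) rose in that comparison. Over all genes tested there, 9.73% rose and 10.6% fell. Otx2 itself was at 15.8 FPKM in Otx2-/- EpiLC, 151 in R1 EpiLC with activin A, 107 without it and 39.9 in E14 EpiLC. Among ESC it reached 1059 FPKM with dox and 45.8 without dox in the transgenic Otx2-/- cells, 7.85 in Otx2-/- ESC, 5.72 and 9.09 in R1 and 3.96 in E14. The Otx2-/- ESC value lay within the range of R1 and E14 ESC, and with the deleted part not given these levels do not check the genotype. Leaving out R1 ESC replicate 1 raised the calls between EpiLC and ESC over all genes to 4118, against 2484 with it, and Fgf5 and Fgf15 passed the test with and without it.

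Fgf5, a secreted ligand, lies on chromosome 5 at 98683203 to 98706049 on mm9, the build of the files. The RefSeq promoter window of Fgf5, chr5:98253934-98254233 on the plus strand of GRCm38.p6, is shown beside that of Fgf4, chr7:144861136-144861435 on the plus strand of the same build. These are the ligand with the largest change and the most abundant ligand. Each window holds 250 bases before and 50 after the annotated start, 5′ to 3′, with capitals marking the motif letters found in it.
Fgf5: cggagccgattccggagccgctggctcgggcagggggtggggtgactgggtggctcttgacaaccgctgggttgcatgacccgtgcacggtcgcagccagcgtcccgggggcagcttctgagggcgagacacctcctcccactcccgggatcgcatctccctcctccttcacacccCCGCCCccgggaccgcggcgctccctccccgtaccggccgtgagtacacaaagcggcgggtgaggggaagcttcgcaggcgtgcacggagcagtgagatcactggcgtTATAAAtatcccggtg
Fgf4: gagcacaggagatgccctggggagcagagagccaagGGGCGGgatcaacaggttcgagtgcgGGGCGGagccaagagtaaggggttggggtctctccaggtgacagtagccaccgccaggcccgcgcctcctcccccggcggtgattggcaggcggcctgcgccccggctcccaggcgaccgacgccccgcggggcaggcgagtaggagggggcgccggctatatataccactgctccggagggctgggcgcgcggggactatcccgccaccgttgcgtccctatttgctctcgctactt

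The windows were searched on both strands for TAATCC (the core letters bound by Otx2), TATAAA (the TATA box), ATTTGCAT (the octamer), GGGCGG (the GC box) and CACGTG (an E-box), and no hit of one motif overlapped a hit of another. The Fgf5 window held TATAAA 34 to 39 bases after the start and the reverse complement of GGGCGG at -74 to -69 from it. This TATAAA thus lay downstream of the start, and whether it acts as a TATA box was not tested. The Fgf4 window held GGGCGG at -214 to -209 and at -188 to -183 from the start. Only exact letters were marked, so the run tatatata before the start in the Fgf4 window stays in lower case. The share of all 32851 RefSeq windows with each motif was 7.06% for TAATCC, 13.6% for TATAAA, 1.74% for ATTTGCAT, 35.7% for GGGCGG and 7.15% for CACGTG. Windows were at hand for 5 of the 8 genes (Fgf5, Fgf4, Fgfr2, Fgfr3 and Fgfr4), and none of these held TAATCC. GC content was 68.3% in the Fgf5 window, 69.7% in the Fgf4 window and 43.7% in that of Fgfr2, whose only hit was CACGTG 28 bases after the start, beside a median of 52.7% over all windows.

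Fgf5 was 48.1-fold higher in FPKM in EpiLC than in ESC, and Fgf15 was the only other of the 8 genes to pass the test. Fgf5 was at 35.8 FPKM in R1 EpiLC with activin A, 28.4 in R1 EpiLC without it and 30.4 in E14 EpiLC. The ESC had 0.809 and 0.590 FPKM in R1 replicates 1 and 2 and 0.566 in E14. These ESC values rest on few fragments, so the size of the fold is rough. The groups did not overlap, and the 3 EpiLC libraries lay close together in spite of differing in line and activin A. Fgf5 averaged 31.5 ± 3.83 FPKM in EpiLC and 0.655 ± 0.134 in ESC (SD, n = 3 each), a log2 difference of 4.29 (SE 0.15, limma adjusted p = 0.000793). Over the alternative settings and left-out libraries its adjusted p ran between 7.14e-05 and 0.0133. Of the 8 genes, 7 averaged 1 FPKM or more and were tested, of which 2 rose and 0 fell, against 20.3% of the 12244 genes tested that passed in either direction (9.73% higher, 10.6% lower). Calls over all genes fell to between 398 and 844 when either R1 EpiLC library, E14 ESC or E14 EpiLC was left out. Bulk RNA cannot tell a change in the number of cells with the transcript from a change in the amount per cell.

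**Figure D1:**
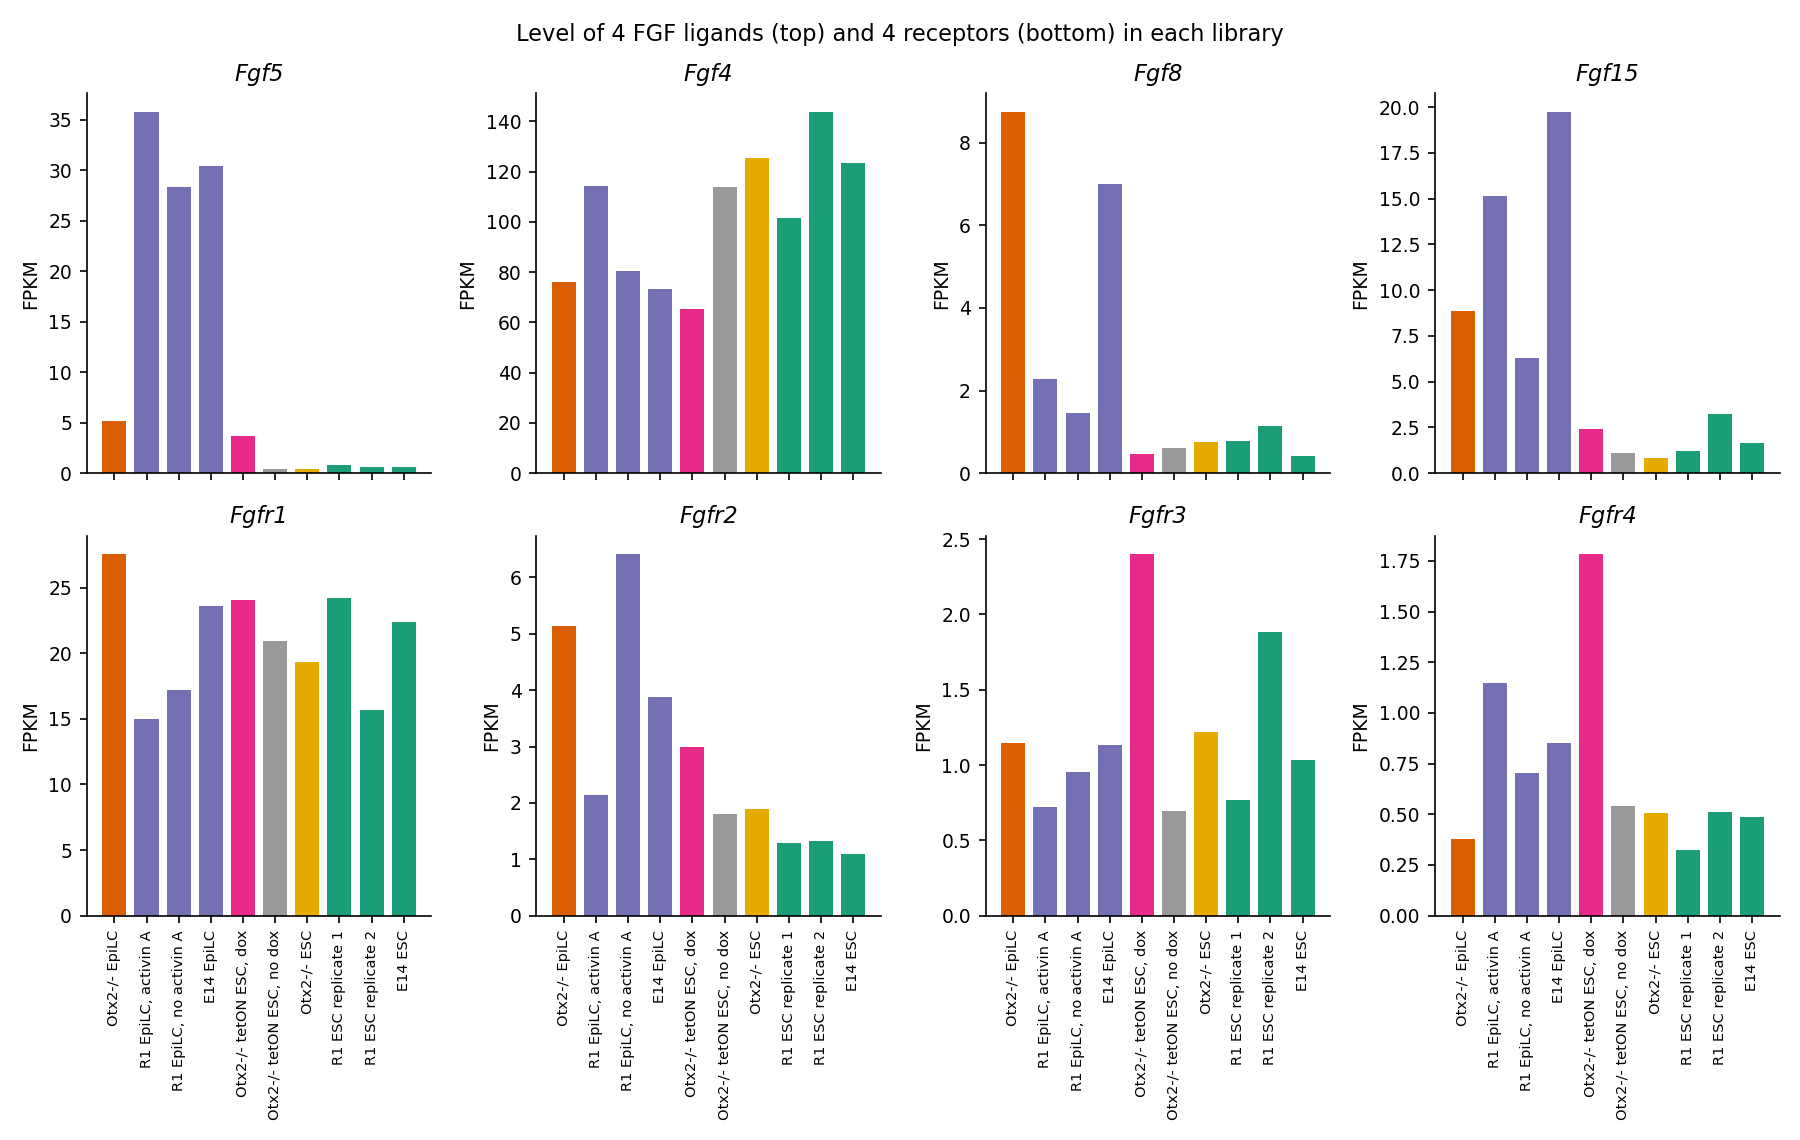
FPKM (y axis, linear from 0, own scale per panel) of each ligand and receptor in each of the 10 libraries (x axis), 1 bar per library. Fgf5 stands at 28.4 to 35.8 FPKM in the R1 and E14 EpiLC, at 5.18 in Otx2-/- EpiLC, at 3.63 with dox and under 1 FPKM in every other ESC library, while Fgf4 and Fgfr1 are high throughout.

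In Otx2-/- cells Fgf5 was at 5.18 FPKM in EpiLC and 0.451 in ESC, an 11.5-fold difference between 1 library and 1 library. The Otx2-/- EpiLC value was 16.4% of the R1 and E14 EpiLC mean and lay below all 3 of those libraries and above every ESC library. The log2 difference from R1 and E14 EpiLC was -2.39 (SE 0.20, limma adjusted p = 0.0117, 1 library against 3), in a fit of 8 libraries that assumes the lone library varies like the others. Fgf5 was 1 of 3 genes called lower in that comparison, and of the 12271 genes tested 0.163% passed in either direction and 0.0244% were lower. Of the 7 members tested 0 rose and 1 fell. Of the 6 epiblast markers 0 passed. They summed to 503 FPKM in Otx2-/- EpiLC and 448 to 597 in R1 and E14 EpiLC. Dnmt3b was the largest part of the Otx2-/- EpiLC sum, at 289 FPKM, so the sum can hide single markers. Sall2 and Otx2 lay below all 3 R1 and E14 EpiLC libraries, with log2 differences of -0.64 and -2.38. Pou3f1 lay above all 3 (0.32), and Dnmt3b, Dnmt3a and Wnt8a lay within their range. Whether the lower level was particular to Fgf5 was not tested. The adjusted p was 0.0527 without R1 EpiLC without activin A, 0.0546 when E14 ESC was left out and 0.11 with the EpiLC libraries alone, where the log2 differences were -2.46, -2.39 and -2.39.

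The size of the EpiLC minus ESC difference in Otx2-/- cells fell short of that in R1 and E14 by 2.20 on the log2 scale (interaction -2.20, SE 0.29), which did not pass adjustment (unadjusted p = 0.000231, limma adjusted p = 0.0786, range 0.0641 to 0.476 over the alternatives). None of the 7 members passed this interaction, against 0.277% of all genes tested by limma at the adjusted threshold and 194 genes at an unadjusted p under 0.05. In ESC, Fgf5 was at 0.451 FPKM in Otx2-/- and 0.655 ± 0.134 in R1 and E14 (SD, n = 3), with a log2 difference of -0.19 (SE 0.20, adjusted p = 1). Of the 7 members tested 0 passed in ESC, against 0.139% of all genes by limma and 132 genes at an unadjusted p under 0.05. The 2 lines without an engineered change did not differ detectably in the Fgf5 response (E14 minus R1, log2 0.05, SE 0.35, adjusted p = 0.982). Of the 7 members 0 passed that interaction, against 0.327% of genes by limma and 380 genes at an unadjusted p under 0.05.

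**Figure D2:**
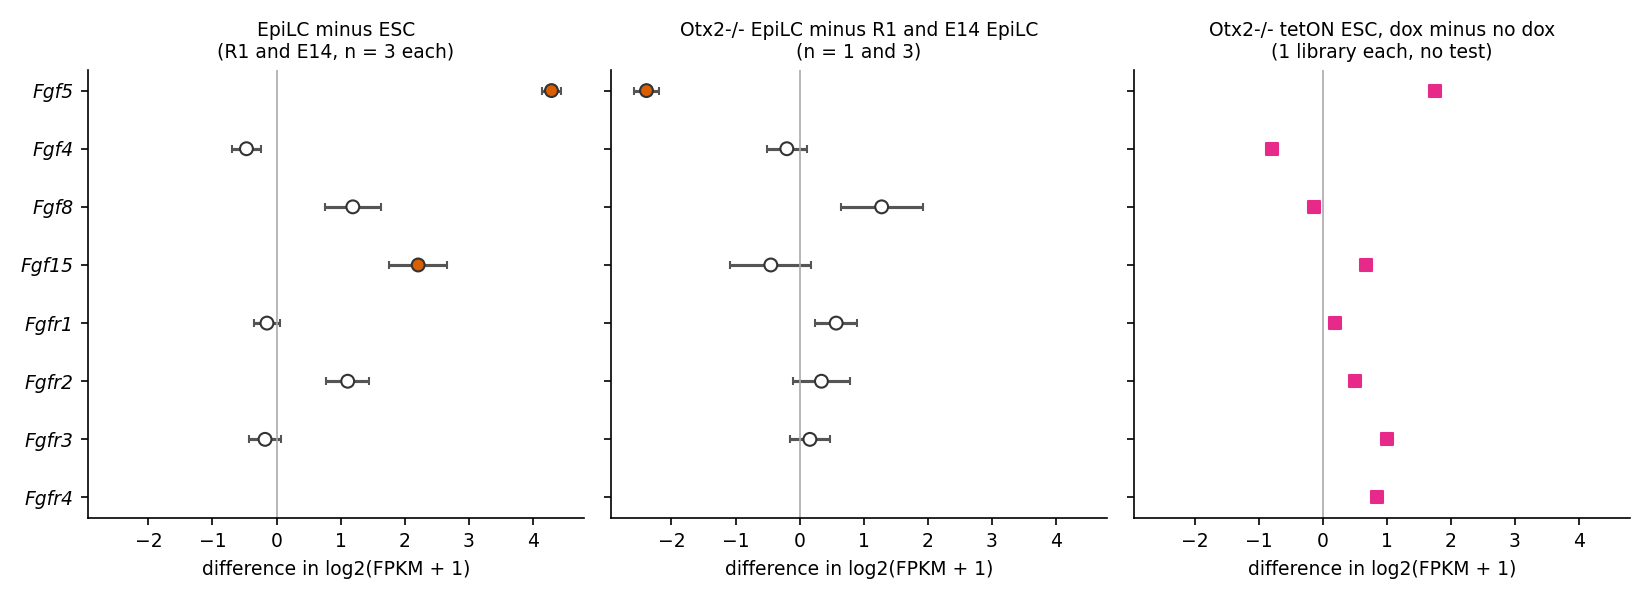
Differences in log2(FPKM + 1) for the 8 genes: EpiLC minus ESC of R1 and E14 (left) and Otx2-/- EpiLC minus R1 and E14 EpiLC (middle), with bars of 1 SE and filled points where the limma adjusted p is under 0.05, and dox minus no dox (right), 1 library each with no error. Fgf5 lies at 4.29, -2.39 and 1.76, and Fgf15 is the other filled point at 2.21. Fgfr4 has no tested point because its mean was below 1 FPKM.

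Dox in the transgenic Otx2-/- ESC went with more Fgf5 but not with the EpiLC level. Fgf5 was at 3.63 FPKM with dox and 0.373 without dox, a 9.76-fold ratio of 1 library to 1 library with no replicate check. The value with dox was 11.5% of the R1 and E14 EpiLC mean. Otx2 was in the same pair at 1059 and 45.8 FPKM, so the library with the most Otx2 had less Fgf5 than Otx2-/- EpiLC with 15.8 FPKM of Otx2. Pairs of libraries were read by a size rule, a log2 ratio of at least 1 in either direction with 5 FPKM in at least 1 of the pair. Fgf5 did not reach 5 FPKM in this pair, only Fgf4 and Fgfr1 of the 8 did, and 0 of those passed 2-fold, against 12.1% of 9304 genes. The transgenic cells without dox and the Otx2-/- ESC, at 0.373 and 0.451 FPKM of Fgf5, were both at the foot of the order. In that pair 2 members reached 5 FPKM and 0 passed 2-fold, against 2.7% of 8951 genes.

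**Figure D3:**
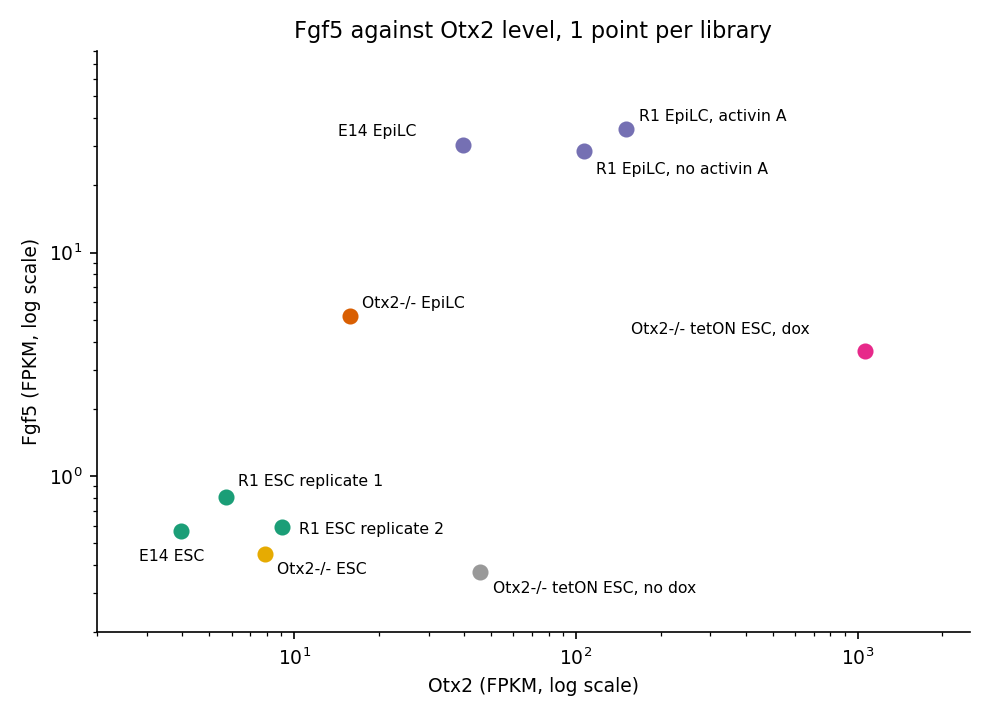
Fgf5 level (y axis, FPKM, log scale) against Otx2 level (x axis, FPKM, log scale), 1 point per library. The R1 and E14 EpiLC lie at the top with 39.9 to 151 FPKM of Otx2, and the dox library lies far right at 1059 FPKM of Otx2 with 3.63 FPKM of Fgf5.

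In order of level, Fgf5 ran R1 EpiLC with activin A, E14 EpiLC, R1 EpiLC without activin A, Otx2-/- EpiLC, dox ESC, R1 ESC replicate 1, R1 ESC replicate 2, E14 ESC, Otx2-/- ESC and no dox ESC. The largest step lay between R1 EpiLC without activin A and Otx2-/- EpiLC, 2.25 on the log2 scale. The next largest lay between dox ESC and R1 ESC replicate 1, 1.36 on the same scale. E14 EpiLC and R1 EpiLC without activin A were closer than the larger SD within a group (0.167 on the log2 scale), as were R1 ESC replicate 2, E14 ESC, Otx2-/- ESC and no dox ESC, each to the next. By rank among all 22867 symbols, Fgf5 was in the top 13.5% in each R1 and E14 EpiLC library, at 37.0% from the top in Otx2-/- EpiLC and at 41.6% with dox.

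The genes most like Fgf5 over the 10 libraries, by Pearson's r of log2(FPKM + 1) among 9962 genes, were Plekha1 (r = 0.984), Arhgap18 (0.983), 1300014I06Rik (0.98), Arhgef16 (0.979), Samhd1 (0.978) and Tap1 (0.976). These are descriptions of 10 libraries that share the split between EpiLC and ESC. Plekha1 encodes a phosphoinositide-binding adaptor, Samhd1 a dNTP hydrolase and Tap1 a peptide transporter of antigen presentation. Each shared the intermediate place of Otx2-/- EpiLC, which a choice by likeness over these same libraries favours, so it is no separate finding. Arhgap18, for one, was at 3.93 FPKM in Otx2-/- EpiLC, 7.48 to 8.95 in R1 and E14 EpiLC and 0.570 to 0.891 in R1 and E14 ESC. 1300014I06Rik was at 4.14 FPKM in Otx2-/- EpiLC, 9.75 to 11.7 in R1 and E14 EpiLC and 0.121 to 0.276 in R1 and E14 ESC.

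Few genes lie near Fgf5. Within 500 kb of it 4 entries were listed, of which 1700007G11Rik and Mir703, a small RNA given the same interval, reached 1 FPKM. 1700007G11Rik begins 52.3 kb beyond Fgf5 and was at 0.205 FPKM in Otx2-/- EpiLC, 1.70 in R1 EpiLC with activin A, 1.45 without it and 1.08 in E14 EpiLC. It was at 0.0967 FPKM with dox, at 0.0408 in R1 ESC replicate 2 and listed at 0 in the other 4 ESC libraries. Its EpiLC values thus lay above all ESC values and the Otx2-/- EpiLC value lay between, in the order of Fgf5 but at a level of few fragments, and its mean was below the filter for testing. Prdm8, a histone methyltransferase family gene 66.7 kb on the other side, is outside the naming rule and was picked after its values were seen. It was at 0.149 FPKM in Otx2-/- EpiLC, 0.191 to 0.867 in R1 and E14 EpiLC, 0.329 with dox, 0.0491 without dox and 0.0741 to 0.158 in R1 and E14 ESC. Unlike Fgf5, its Otx2-/- EpiLC value lay within the ESC range and below the value with dox. Antxr2, the remaining entry and also outside the naming rule, was at 0.129 FPKM in Otx2-/- EpiLC and 0.191 to 0.406 in R1 and E14 EpiLC. It was at 0.0211 FPKM or less in R1 and E14 ESC and at 0.342 with dox. Its Otx2-/- EpiLC value lay between those of R1 and E14 EpiLC and ESC, as for Fgf5, but below the value with dox.

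Fgf4, the ligand that blastocyst and stem cells secrete, was the most abundant of the 8 genes in every library. It lies on chromosome 7 at 152047291 to 152051148. It was at 76.1 FPKM in Otx2-/- EpiLC, 114 in R1 EpiLC with activin A, 80.6 without it and 73.2 in E14 EpiLC. The ESC values were 65.5 FPKM with dox and 114 without dox, 125 in Otx2-/-, 101 and 144 in R1 and 124 in E14. The R1 and E14 groups overlapped. Fgf4 averaged 89.4 ± 21.9 FPKM in EpiLC and 123 ± 21.3 in ESC (SD, n = 3 each), and the log2 difference of -0.47 (SE 0.23) did not pass (limma adjusted p = 0.201). In Otx2-/- EpiLC it was -0.20 (SE 0.31) from R1 and E14 EpiLC on the log2 scale (adjusted p = 0.96). The library with dox was the lowest of the 10, at 0.576 of its no dox pair. In the order of its levels no step between neighbours exceeded the larger SD within a group, 0.335 on the log2 scale.

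The proportion of Fgf4 to Fgf5 differed between the states by far more than within them in R1 and E14. Fgf4 exceeded Fgf5 in FPKM 14.7-fold in Otx2-/- EpiLC and 2.41-fold to 3.19-fold in R1 and E14 EpiLC. In ESC the ratio was 18.0 with dox, 305 without dox, 278 in Otx2-/- and 125 to 244 in R1 and E14. All ESC ratios but that with dox divide by less than 1 FPKM of Fgf5 and are rough. Of the summed FPKM of the 4 ligands, Fgf5 made up 5.24% in Otx2-/- EpiLC, 21.4% to 24.3% in R1 and E14 EpiLC, 5.05% with dox and 0.396% to 0.777% in R1 and E14 ESC. Fgf4 made up 76.9% in Otx2-/- EpiLC, 56.1% to 69.1% in R1 and E14 EpiLC, 91.0% with dox and 96.7% to 97.9% in R1 and E14 ESC. A share moves with every ligand in the sum, so these values restate the levels above.

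**Figure D4:**
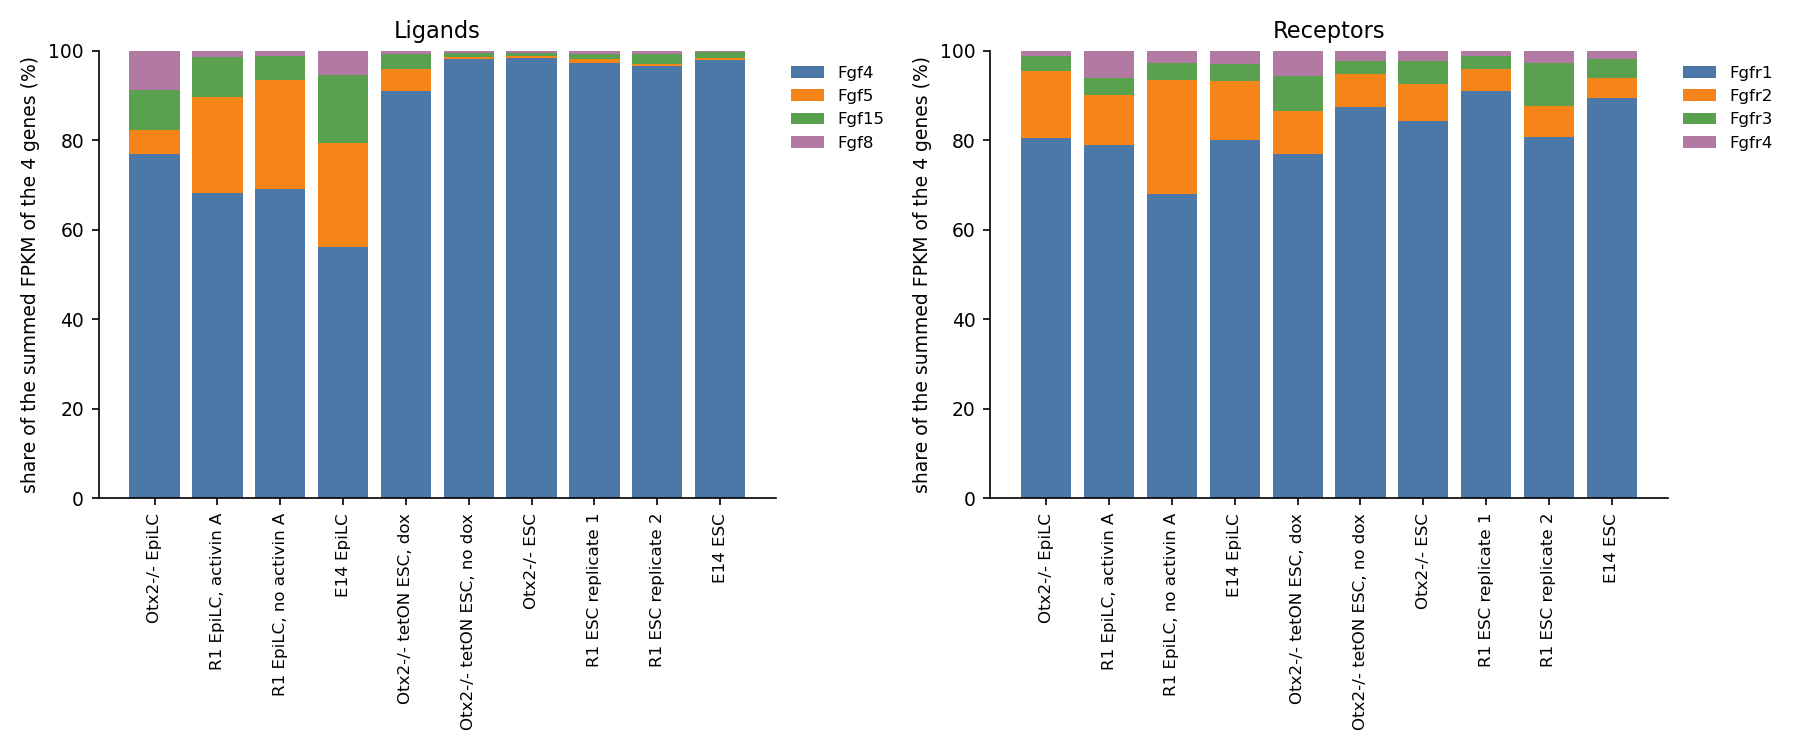
Share of the summed FPKM (y axis, %) of the 4 ligands (left) and of the 4 receptors (right) in each library (x axis). Fgf5 takes 21.4% to 24.3% of the ligand sum in R1 and E14 EpiLC and 5.24% in Otx2-/- EpiLC, and Fgfr1 takes at least 68.1% of the receptor sum in every library.

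Fgf15, the mouse counterpart of human FGF19 and known as a hormone of the gut and a ligand in the embryonic brain, rose with Fgf5. It lies on chromosome 7 at 152082437 to 152086856, 31288 bp from Fgf4. It was at 8.87 FPKM in Otx2-/- EpiLC, 15.2 in R1 EpiLC with activin A, 6.31 without it and 19.8 in E14 EpiLC. In ESC it was at 2.39 FPKM with dox and 1.13 without dox, 0.856 in Otx2-/-, 1.20 and 3.24 in R1 and 1.63 in E14. Every EpiLC library lay above every ESC library, but the EpiLC libraries were far apart, with E14 the highest and R1 without activin A the lowest. Fgf15 averaged 13.7 ± 6.84 FPKM in EpiLC and 2.02 ± 1.08 in ESC (SD, n = 3 each), a log2 difference of 2.21 (SE 0.45, limma adjusted p = 0.0263). The call was lost without R1 EpiLC with activin A (2.00, adjusted p = 0.106), without E14 ESC (1.83, adjusted p = 0.117) and without E14 EpiLC (1.83, adjusted p = 0.123). With line in the fit, a lone E14 library adds nothing to the state difference. Both fits without an E14 library thus rest on R1 alone and are not separate checks.

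In contrast to Fgf5, Fgf15 in Otx2-/- EpiLC lay inside the range of the R1 and E14 EpiLC (log2 difference -0.45, SE 0.63, adjusted p = 0.96). With activin A it was 2.40-fold its level without in R1 EpiLC, and it was the 1 member that passed the size rule upwards in that pair. Of 5 members that reached 5 FPKM there, 1 was higher and 1, Fgfr2, lower, against 2.14% of 8963 genes in either direction and 1.07% each way. Fgf5 was at 35.8 FPKM with activin A and 28.4 without it, a ratio of 1.26. These are single libraries with no test.

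Fgf4 and Fgf15 are neighbours on chromosome 7, with Fgf3 18.0 kb away on the Fgf4 side. Of 12 further entries within 500 kb of the pair, 7 reached 1 FPKM (Cttn, Ppfia1, Fadd, Fgf3, Oraov1, Ccnd1 and Tpcn2), and 0 of them passed between EpiLC and ESC, against 20.3% of all genes, where log2 differences ran between -0.86 for Fgf3 and -0.16 for Oraov1. The difference of Fgf15 from these neighbours was not tested.

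Fgf8, a ligand of gastrulation and of the midbrain organizer, lies on chromosome 19 at 45811288 to 45817374. It was at 8.75 FPKM in Otx2-/- EpiLC, 2.28 in R1 EpiLC with activin A, 1.45 without it and 6.99 in E14 EpiLC. In ESC it was at 0.463 FPKM with dox and 0.612 without dox, 0.763 in Otx2-/-, 0.785 and 1.15 in R1 and 0.409 in E14. The highest values were those of the Otx2-/- and E14 EpiLC, and the R1 EpiLC stood close to the ESC. Fgf8 averaged 3.57 ± 2.99 FPKM in EpiLC and 0.781 ± 0.370 in ESC (SD, n = 3 each), groups that did not overlap but whose log2 difference of 1.19 (SE 0.44) did not pass (limma adjusted p = 0.118). Without either E14 library, ESC or EpiLC, the difference was 0.53, in both cases from the R1 libraries alone. Over all genes tested, 19.7% had EpiLC values all above the ESC values.

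The Fgf8 response was larger in E14 than in R1 by 1.97 on the log2 scale (SE 0.42), at an unadjusted p of 0.00904 that did not pass over all genes (limma adjusted p = 0.914). In Otx2-/- EpiLC Fgf8 lay above all 3 R1 and E14 EpiLC libraries, the opposite side to Fgf5, with a log2 difference of 1.28 (SE 0.64, adjusted p = 0.96) that did not pass.

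Among the receptors, Fgfr1, which mediates most of the FGF response of stem cells, was the most abundant in every library and did not follow the state. It lies on chromosome 8 at 26629244 to 26686186. It was at 27.6 FPKM in Otx2-/- EpiLC, 15.0 in R1 EpiLC with activin A, 17.2 without it and 23.6 in E14 EpiLC. The ESC values were 24.0 FPKM with dox and 21.0 without dox, 19.3 in Otx2-/-, 24.2 and 15.7 in R1 and 22.4 in E14. The groups overlapped, at 18.6 ± 4.49 FPKM in EpiLC and 20.8 ± 4.47 in ESC (SD, n = 3 each), with a log2 difference of -0.15 (SE 0.20, limma adjusted p = 0.616). The sign of that difference turned to 0.05 without R1 ESC replicate 1. Fgfr1 made up 68.1% to 91.0% of the summed receptor FPKM of a library.

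Fgfr2, a receptor of the primitive endoderm and trophoblast, lies on chromosome 7 at 137305965 to 137410322. It was at 5.14 FPKM in Otx2-/- EpiLC, 2.13 in R1 EpiLC with activin A, 6.41 without it and 3.88 in E14 EpiLC. In ESC it was at 2.99 FPKM with dox and 1.80 without dox, 1.89 in Otx2-/-, 1.29 and 1.33 in R1 and 1.10 in E14. EpiLC lay above ESC without overlap in R1 and E14, at 4.14 ± 2.15 and 1.24 ± 0.124 FPKM (SD, n = 3 each), yet the log2 difference of 1.11 (SE 0.34) did not pass (limma adjusted p = 0.0758). It passed without R1 EpiLC with activin A (1.48, adjusted p = 0.0444) and without the line term (1.11, adjusted p = 0.0462). With activin A, Fgfr2 was at 0.333 of its level without, the only member lower by the size rule in that pair.

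Fgfr3 and Fgfr4 were low in every library, with a highest value of 2.40 FPKM. Their values under 1 FPKM rest on few fragments. Fgfr3, known for its role in cartilage growth, lies on chromosome 5 at 34064373 to 34079717. It was at 1.15 FPKM in Otx2-/- EpiLC, 0.719 to 1.13 in R1 and E14 EpiLC, 2.40 with dox, 0.692 without dox, 1.22 in Otx2-/- ESC and 0.766 to 1.88 in R1 and E14 ESC. The groups overlapped (log2 difference -0.18, SE 0.25, limma adjusted p = 0.642), and the library with dox was the highest of the 10. Fgfr4, the main receptor for Fgf15 in the liver, lies on chromosome 13 at 55254179 to 55270120 and was below the filter, with a mean of 0.671 FPKM. It was at 0.378 FPKM in Otx2-/- EpiLC, 1.15 in R1 EpiLC with activin A, 0.704 without it and 0.851 in E14 EpiLC. In ESC it was at 1.78 FPKM with dox and 0.542 without dox, 0.506 in Otx2-/-, 0.324 and 0.511 in R1 and 0.486 in E14. R1 and E14 EpiLC lay above the ESC without overlap, and Otx2-/- EpiLC lay among the ESC. Without the filter the log2 difference was 0.40 (SE 0.12, limma adjusted p = 0.0954). With dox, Fgfr3 was 3.47-fold and Fgfr4 3.29-fold its level without, below the 5 FPKM of the size rule.

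By the same measure of likeness, with 1 gene named for each and no function implied, Fgf4 was most like Pecam1 (r = 0.975), Fgf8 like Crct1 (0.966), Fgf15 like Caprin2 (0.973) and Fgfr1 like Elavl1 (0.967). For the other receptors these were Tcf12 for Fgfr2 (0.941), 1700020O03Rik for Fgfr3 (0.863) and Cpne2 for Fgfr4 (0.948). Crct1, like Fgf8, was highest in Otx2-/- EpiLC (5.38 FPKM) and E14 EpiLC (5.10) and at 1.00 FPKM or less in all other libraries.

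Of 18 other FGF genes of the mouse in the list, 7 reached 1 FPKM in a library (Fgf1, Fgf3, Fgf10, Fgf11, Fgf13, Fgf17 and Fgf18) and 11 did not, the highest of these at 0.827 FPKM. Of the 5 that averaged 1 FPKM or more, 0 rose and 1 fell between EpiLC and ESC, beside 20.3% of all genes that passed in either direction, and their median log2 difference was -0.40 beside -0.09 over all genes. The one that fell was Fgf10, a ligand of limb and lung buds that signals through Fgfr2. Fgf10 was at 0.133 FPKM in Otx2-/- EpiLC, 0.148 in R1 EpiLC with activin A, 0.113 without it and 0.123 in E14 EpiLC. Among ESC it was at 0.523 FPKM with dox and 2.06 without dox, 2.87 in Otx2-/-, 2.49 and 2.77 in R1 and 2.94 in E14. The groups were far apart, Otx2-/- cells fell with their state and the dox library lay between (log2 difference in R1 and E14 -1.72, SE 0.17, limma adjusted p = 0.00453). Fgf10 was thus low in R1 and E14 EpiLC, where Fgf5 was high. It was as low in Otx2-/- EpiLC, where Fgf5 was at only 5.18 FPKM.

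The others did not pass. Fgf17, which is close to Fgf8 in sequence and is also in the marker list for primitive streak, was at 8.34 FPKM in Otx2-/- EpiLC, 2.43 to 9.18 in R1 and E14 EpiLC, 0.361 with dox, 3.81 without dox and 4.31 to 7.42 in R1 and E14 ESC (log2 difference of EpiLC from ESC -0.40, adjusted p = 0.462). Fgf3 averaged 1.03 ± 0.489 FPKM in EpiLC and 2.74 ± 1.15 in ESC (adjusted p = 0.115). The intracellular family members Fgf11 and Fgf13 averaged 3.06 ± 0.900 and 1.65 ± 0.594 FPKM in EpiLC and 1.99 ± 0.713 and 0.764 ± 0.212 in ESC (adjusted p = 0.289 and 0.141, SD, n = 3 each). Fgf1 and Fgf18 were below the filter and highest with dox (2.55 FPKM) and in E14 EpiLC (1.47 FPKM). Fgf2, whose protein is the bFGF added to the EpiLC medium, was listed at 0 in all EpiLC libraries and at 0.374 FPKM or less elsewhere.

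Of 19 co-receptors and heparan sulfate genes, 16 were tested between EpiLC and ESC, 2 rose and 2 fell, with a median log2 difference of 0.22. That number of calls is near the share over all genes, 9.73% higher and 10.6% lower. Hs6st2, a heparan sulfate sulfotransferase, rose by 1.28 on the log2 scale (SE 0.31, limma adjusted p = 0.0398) and Sdc1, a cell surface proteoglycan, by 0.67 (SE 0.17, adjusted p = 0.0466). Gpc4, a glypican of ESC, fell by 1.29 (SE 0.22, adjusted p = 0.0161) and Ext2, a polymerase of the heparan sulfate chain, by 0.82 (SE 0.13, adjusted p = 0.0146). Hs6st2 was at 6.41 FPKM in Otx2-/- EpiLC, 1.27 to 3.49 in R1 and E14 EpiLC and 0.0938 to 0.483 in R1 and E14 ESC, so it was highest where Fgf5 was at 5.18 FPKM. Fgfrl1, a receptor without a kinase domain, averaged 7.46 ± 1.43 FPKM in EpiLC and 3.86 ± 1.79 in ESC (SD, n = 3 each) and did not pass (log2 difference 0.86, SE 0.33, adjusted p = 0.125). The klotho co-receptors Kl and Klb, which hormone-like FGFs such as Fgf15 need, stayed at 0.438 FPKM or less in every library.

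Of the 18 adaptors and cascade genes reported here, 17 had an entry (Hras had none) and all 17 were tested, of which 1 passed the test, against 20.3% of all genes, with a median log2 difference of 0.03. Grb2, the adaptor that couples receptors to Ras, fell by 0.77 on the log2 scale (SE 0.13, limma adjusted p = 0.0153). Braf was listed at 0 in both R1 EpiLC libraries and at 35.6 FPKM in E14 EpiLC and 37.0 in Otx2-/- EpiLC, so its fitted differences carry no meaning.

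Of 12 feedback inhibitors, all tested, 3 rose and 0 fell between EpiLC and ESC, with a median log2 difference of 0.25. Over all genes 9.73% rose and 10.6% fell, so with 12 genes the count is not far from the background. Dusp4, a phosphatase of MAP kinases, was at 14.2 FPKM in Otx2-/- EpiLC, 10.5 to 40.0 in R1 and E14 EpiLC and 1.43 to 3.19 in R1 and E14 ESC (log2 difference in R1 and E14 2.82, SE 0.46, limma adjusted p = 0.0153). Spry1, a Sprouty inhibitor of receptor signalling, was at 16.8 FPKM in Otx2-/- EpiLC, 20.0 to 22.1 in R1 and E14 EpiLC and 5.20 to 5.91 in R1 and E14 ESC (1.75, SE 0.13, adjusted p = 0.00256). Dusp5, a phosphatase of ERK, rose by 1.26 (SE 0.28, adjusted p = 0.0344). Dusp6, the cytoplasmic ERK phosphatase, had 49.7 ± 22.8 FPKM in EpiLC and 15.8 ± 11.1 in ESC (SD, n = 3 each) and did not pass (adjusted p = 0.0849).

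Of 8 genes used as readouts of ERK, 6 were tested, 1 rose and 0 fell, near the 20.3% of all genes that passed in either direction, with a median of 0.27. The one that rose was Ier3, an immediate early gene (log2 difference 2.45, SE 0.44, limma adjusted p = 0.0186). The PEA3 factors Etv4 and Etv5, which follow FGF signalling in many tissues, did not pass, with log2 differences of -0.18 (SE 0.20) and 0.02 (SE 0.18). In Otx2-/- EpiLC against R1 and E14 EpiLC, 0 genes passed in any of these 5 lists, with 0.163% of all genes passing, so the absence of calls says nothing particular about the lists.

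**Figure D5:**
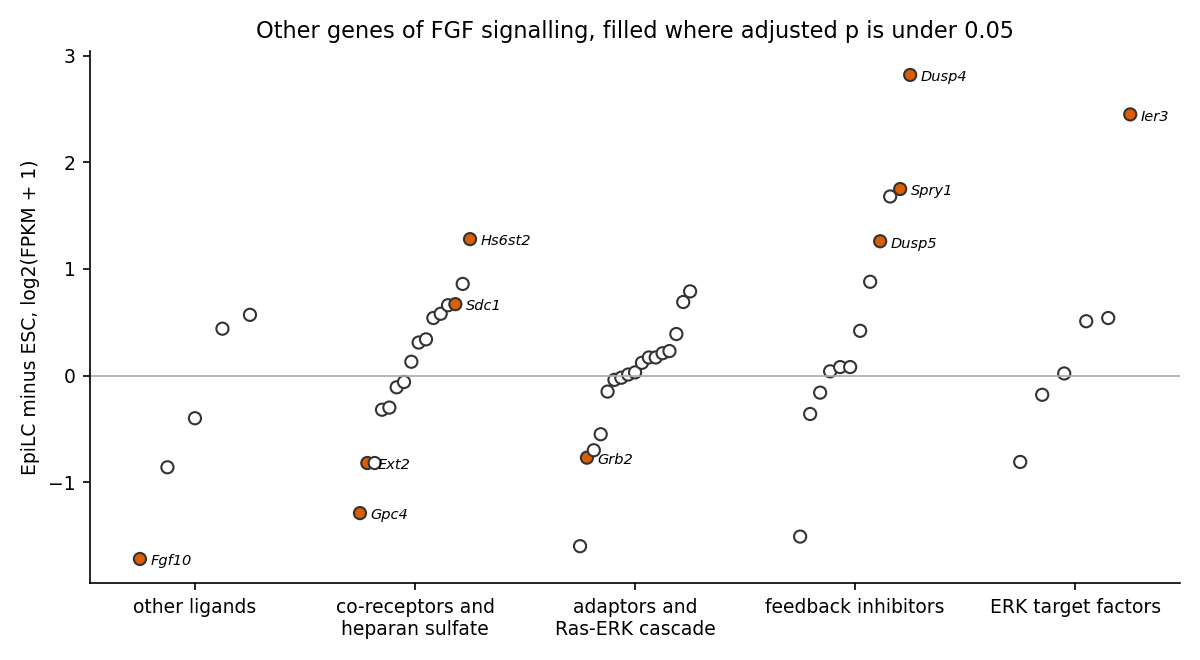
Difference between EpiLC and ESC of R1 and E14 in log2(FPKM + 1) (y axis) for the tested genes of 5 lists of the FGF pathway (x axis, ordered by size within a list), 1 point per gene, filled where the limma adjusted p is under 0.05. Of 12 inhibitors 3 are filled, all above 0, and of 5 other ligands 1 is filled, Fgf10 at -1.72.

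The pair with and without dox was read in the same lists by the size rule, with 1 library each and no test. Of 8 inhibitors that reached 5 FPKM in the pair, 0 were 2-fold higher and 2 lower with dox (median log2 ratio -0.60), and of 5 ERK readouts 0 were higher and 3 lower (median -1.25), beside a median of -0.06 over all genes and 5.71% of genes lower. Spry4, a Sprouty inhibitor, was at 0.388 FPKM with dox and 13.9 without dox, and Dusp6 at 2.66 and 12.7. Etv4 was at 6.10 FPKM with dox and 29.7 without dox, Etv1 at 3.28 and 9.20, and Myc at 1.15 and 5.45. These genes also differed between the R1 ESC replicates. In replicates 1 and 2, Spry4 was at 31.45 and 7.596 FPKM, Dusp6 at 28.56 and 8.661, and Etv4 at 37.18 and 26.27. Etv1 was at 14.41 and 6.25 FPKM, and Myc at 28.68 and 2.295. By ratio, the replicates lay further apart than the dox pair for Myc and closer for the others. Spry4 was at 6.049 FPKM in Otx2-/- ESC. Whether the dox differences exceed replicate spread was not tested. Both cultures of the dox pair had the MEK inhibitor, per the labels. In the same pair Fgf4 was at 65.5 FPKM with dox and 114 without dox, and Fgf5 at 3.63 and 0.373. The naive markers summed to 536 FPKM with dox and 1346 without dox, against 133 to 235 in R1 and E14 EpiLC, and 4 of 6 were 2-fold lower.

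Lists of markers of other cell types summed to between 1.03 and 23.0 FPKM, in many libraries more than Fgf5, and their part in the results was not tested. Of 7 primitive endoderm markers 3 reached 1 FPKM in a library, and the list summed to 3.39 FPKM in Otx2-/- EpiLC, 3.79 to 4.58 in R1 and E14 EpiLC, 7.11 with dox, 2.88 without dox, 2.13 in Otx2-/- ESC and 1.82 to 3.51 in R1 and E14 ESC. Dab2 carried the EpiLC part (1.68 to 3.40 FPKM in R1 and E14 EpiLC) and Gata4 the dox part (3.08 FPKM), while Sox17 stayed at 0.256 FPKM or less. The neural list summed to 13.8 FPKM in Otx2-/- EpiLC, 3.28 to 9.27 in R1 and E14 EpiLC, 14.4 with dox, 11.4 without dox, 8.14 in Otx2-/- ESC and 5.09 to 8.08 in R1 and E14 ESC. It was thus highest with dox, where Nes was at 12.9 FPKM, and next in Otx2-/- EpiLC, where Sox1 was at 7.73 FPKM. The sum with dox was mostly Nes, which was at 5.12 FPKM without dox. Sox1 and Pax6 went the other way, at 0.475 and 0.501 FPKM with dox and 3.27 and 2.75 without dox. Zic1, Neurog2 and Hes5 stayed at 0.217 FPKM or less in both. Of that list 3 of 6 markers reached 1 FPKM, and Hes5 was listed at 0 in R1 EpiLC with activin A, E14 EpiLC and 3 ESC libraries. The trophoblast list summed to 13.8 FPKM in Otx2-/- EpiLC, 7.89 to 22.0 in R1 and E14 EpiLC, 15.3 with dox, 22.2 without dox, 21.5 in Otx2-/- ESC and 19.3 to 23.0 in R1 and E14 ESC. Tfap2c (2.14 to 18.9 FPKM) and Eomes (1.48 to 9.31) were its largest members in every library, and Elf5 stayed at 0.189 FPKM or less. Krt7 averaged 3.68 FPKM in R1 and E14 EpiLC and 0.211 in ESC and rose (log2 difference 1.83, SE 0.31, limma adjusted p = 0.0161). The fibroblast list summed to 3.80 FPKM in Otx2-/- EpiLC, 3.38 to 8.13 in R1 and E14 EpiLC, 2.74 with dox, 2.88 without dox, 1.03 in Otx2-/- ESC and 1.10 to 1.76 in R1 and E14 ESC. The primitive streak list, with Fgf17 in it, summed to 9.57 FPKM in Otx2-/- EpiLC, 3.17 to 11.6 in R1 and E14 EpiLC, 9.09 with dox, 8.08 without dox, 8.60 in Otx2-/- ESC and 8.34 to 11.1 in R1 and E14 ESC.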

How the data were processed

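Gene-level FPKM were deposited by the authors for each of the 10 libraries and came from TopHat and Cufflinks on mm9, per the submitters' processing notes, with versions and annotation not given in the sources used here. Per the labels' protocols, cDNA of polyadenylated RNA was made with random hexamers for an Illumina Genome Analyzer. They describe no marking of the strand, so sense and antisense reads cannot be told apart.

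Each table held 23112 entries. Of these, 17 exact repeats were dropped and 228 entries that shared a symbol were summed. Depth was approximated from the smallest values above 0 of olfactory receptor genes and is rough. Count models were not used on FPKM. On log2(FPKM + 1), limma 3.58.1 (R 4.3.3, eBayes with trend, two-sided, Benjamini-Hochberg) tested genes that averaged 1 FPKM or more, with line as a covariate between EpiLC and ESC. The script was tested on simulated data. Likeness was ranked among genes with a mean of 1 FPKM or more, 5 FPKM in some library, no 0 and no small RNA symbol. Of the pathway lists, up to 4 genes each way that passed were named, with all ligands that reached 1 FPKM and others picked after their values were seen. A gene of the adaptor and cascade list is not reported here, and the counts, median and plot of that list leave it out. Per the labels' protocols the cultures were independent replicates, and p-values rest on the spread of these few libraries. The genes and lists were chosen with earlier results of these data known. Promoter windows came from RefSeq (GRCm38.p6), and no coordinates were converted between builds. Alternatives were another pseudocount (0.1), no filter or one at 5 FPKM, median-ratio or quantile scaling, no trend, no line term, the libraries of 1 state alone and leaving out each library.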

Additional observations from a re-analysis of the deposited data

Results flagged for a closer look

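Fgfr4 was listed for a closer look because its values lay in opposite orders in the R1 and E14 lines and in Otx2-/- cells. It was at 0.378 FPKM in Otx2-/- EpiLC and 0.506 in Otx2-/- ESC, while all R1 and E14 EpiLC libraries (0.704 to 1.15 FPKM) lay above all R1 and E14 ESC libraries (0.324 to 0.511 FPKM). The gap between the 2 Otx2-/- libraries was smaller than the larger SD within an R1 and E14 group (0.169 on the log2 scale). That SD is of the EpiLC libraries, which differ in line and activin A, so it is not a replicate spread. The gap thus shows no movement beyond the differences among those libraries. The gene was below the filter, so the difference between the lines was not among the main tests. In a fit without the filter it was -0.53 on the log2 scale (SE 0.21, limma adjusted p = 0.977).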

How the results depend on the processing

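Fgf5 passed between EpiLC and ESC under all alternatives run, with log2 differences between 4.21 and 4.39 over left-out libraries. Members called there numbered 1 to 2 over left-out libraries. In Otx2-/- EpiLC, Fgf5 ran between -2.46 and -2.30 and members called between 0 and 1 over left-out libraries, and the EpiLC libraries alone gave -2.39 (adjusted p = 0.11) and 0 called. With a pseudocount of 0.1 the dox ratio of Fgf5 was 2.98 on the log2 scale, against 1.76. Signs of uncalled differences turned under quantile scaling for Fgf8 (-0.03) and Fgfr3 (-0.03) in Otx2-/- ESC and for Fgfr2 in the Otx2-/- interaction (0.08), and the cause was not tested. Over left-out libraries Fgfr1 ran between -0.29 and 0.05 between EpiLC and ESC. In Otx2-/- ESC Fgf4 ran between -0.09 and 0.16, Fgf8 between -0.15 and 0.15, Fgfr1 between -0.26 and 0.04 and Fgfr3 between -0.12 and 0.03. In the Otx2-/- interaction Fgf15 ran between -0.24 and 0.51 and Fgfr2 between -0.34 and 0.29. In E14 minus R1, Fgf5 ran between -0.11 and 0.21 and Fgfr2 between -0.46 and 0.78.

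Calls over all genes were 2484 between EpiLC and ESC (398 to 4118 over left-out libraries, 1644 with a filter at 5 FPKM). They were 20 in Otx2-/- EpiLC (20 to 42, and 59 without the filter), 17 in Otx2-/- ESC (17 to 26, 34 without the filter, 5 at 5 FPKM and 37 from ESC alone), 34 in the Otx2-/- interaction (38 to 47, 55 without the filter, 11 at 5 FPKM) and 40 in E14 minus R1 (0 to 127, 17 with a pseudocount of 0.1, 13 at 5 FPKM). A comparison could not be fitted without its lone E14 or Otx2-/- library. No paired analysis was possible because only the R1 ESC carry replicate numbers. Genes near or below 1 FPKM, such as Fgfr3, Fgfr4 and Fgf5 in all ESC but those with dox, rest on few fragments. Folds and ratios over such values are rough.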
